A study of Schizosaccharomyces pombe with 8 samples.

Results

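Histone H3 and H3 trimethylated at lysine 4 (H3K4Me3) were examined at *pho1*, *pho84* and *tgp1*, a set of 3 phosphate-regulated genes of fission yeast that each lie downstream of a long noncoding RNA (lncRNA). They were read through 50 array probes, of 42641 nuclear probes, that overlap an annotated gene of the set or the 1.5 kb on either side of it, and 4276 coding genes in all could be scored at their 5′ ends. Of the 50 probes, 19 belong to *pho1*, 20 to *pho84* and 18 to *tgp1*, and 7 lie in the regions of both *pho1* and *pho84*, which are neighbours. After removal of probes marked as outliers on any array, 44 of the 50 remained (16, 16 and 17), among 37239 in the whole series. The data come from ChIP-on-chip, in which DNA recovered with an antibody is hybridized together with its input DNA. Every value below is the log2 ratio of ChIP to input signal, set to 0 at the median of the nuclear probes of the array. The conditions compared are +N and −N. In +N, cells stayed in nitrogen-rich medium, were arrested with the mating pheromone M-factor and were sampled 30 min after a shift to 34°C. In −N, cells were starved of nitrogen, re-fed and sampled 2 h after the same shift. Both used a single diploid strain, PN2159, homozygous for mating type *h+* and for *pat1-114* and carrying *ade6-M210* over *ade6-M216*. Inactivation of its temperature-sensitive Pat1 kinase induces meiosis, and both groups were taken at the beginning of premeiotic S phase. Each antibody had 2 arrays per condition, 8 arrays in all. Nitrogen supply, pheromone and time after the shift differ together between +N and −N, so their parts cannot be told apart. The labels name no difference in phosphate supply.

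The *pho1* gene encodes a cell-surface acid phosphatase, *pho84* an inorganic phosphate transporter, and *tgp1* a transporter of glycerophosphodiesters. In cells with ample phosphate, RNA polymerase II reads from an upstream lncRNA promoter through the promoter of each gene, and this act of transcription holds the gene down. In phosphate starvation the lncRNA is made less and the transcription factor Pho7 activates the gene. H3K4Me3 is deposited by the Set1 complex near the start of units that are being transcribed, and therefore marks the 5′ ends of active genes. An array does not tell the strands apart, so a level cannot be given to one of 2 overlapping transcripts.

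All 3 genes lie on chromosome II, and coordinates are those of the assembly ASM294v3. *pho84* (SPBC8E4.01C) occupies chrII:4444101-4446200 on the plus strand, and its lncRNA *prt2* (SPNCRNA.9001, chrII:4442542-4445970) starts 1559 bp before it on the same strand. *pho1* (SPBP4G3.02, chrII:4447506-4449053, plus strand) follows, with *nc-pho1* (also called *prt*, SPNCRNA.1712, chrII:4446359-4448918) starting 1147 bp before it, just after the end of *pho84*. *tgp1* (SPBC1271.09, chrII:350310-352411) is on the minus strand, and *nc-tgp1* (SPNCRNA.1698, chrII:352335-354234) starts 1823 bp before it. The starts of *prt2* and *nc-tgp1* are thus slightly farther away than 1.5 kb. For this reason the lncRNA starts were also analysed as features of their own, a choice made after the annotation had been seen.

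The 250 bases before the start of the 3 genes and of 2 of the lncRNAs are shown because the results turn on the contrast between these starts. Capitals mark motifs that were searched on both strands: the binding site of Pho7, the HomolD box CAGTCACA, the TATA box TATAAA and the core of the Mmi1 recognition sequence TTAAAC. None of the matches overlap.
The coding genes are *tgp1* at chrII:352412-352661 (minus strand), *pho1* at chrII:4447256-4447505 and *pho84* at chrII:4443851-4444100 (both plus strand).
tgp1: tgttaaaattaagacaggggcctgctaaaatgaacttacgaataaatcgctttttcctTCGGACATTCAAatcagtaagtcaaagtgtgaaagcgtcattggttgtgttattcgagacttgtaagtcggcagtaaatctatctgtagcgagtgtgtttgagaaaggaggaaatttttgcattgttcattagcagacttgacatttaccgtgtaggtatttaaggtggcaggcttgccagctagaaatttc
pho1: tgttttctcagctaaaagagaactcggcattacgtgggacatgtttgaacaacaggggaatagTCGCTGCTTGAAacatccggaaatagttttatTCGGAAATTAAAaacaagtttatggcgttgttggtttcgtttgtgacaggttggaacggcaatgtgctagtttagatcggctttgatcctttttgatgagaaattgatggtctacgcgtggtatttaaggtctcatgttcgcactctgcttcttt
pho84: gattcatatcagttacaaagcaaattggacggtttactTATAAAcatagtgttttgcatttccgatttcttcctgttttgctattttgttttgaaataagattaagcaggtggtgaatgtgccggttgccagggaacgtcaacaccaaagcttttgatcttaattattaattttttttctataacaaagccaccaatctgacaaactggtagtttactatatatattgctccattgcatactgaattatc
The lncRNAs are *nc-tgp1* at chrII:354235-354484 (minus strand) and *nc-pho1* at chrII:4446109-4446358 (plus strand).
nc-tgp1: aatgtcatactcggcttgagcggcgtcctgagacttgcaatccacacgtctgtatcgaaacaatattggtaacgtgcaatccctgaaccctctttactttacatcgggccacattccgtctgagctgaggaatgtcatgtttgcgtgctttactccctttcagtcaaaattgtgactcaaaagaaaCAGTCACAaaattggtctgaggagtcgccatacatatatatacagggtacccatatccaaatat
nc-pho1: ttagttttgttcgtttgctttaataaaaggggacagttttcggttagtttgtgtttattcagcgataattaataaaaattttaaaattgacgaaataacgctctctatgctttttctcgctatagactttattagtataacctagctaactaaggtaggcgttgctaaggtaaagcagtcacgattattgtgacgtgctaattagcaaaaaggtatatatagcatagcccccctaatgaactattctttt
A Pho7 site began at −192 before *tgp1* (TCGGACATTCAA), and *pho1* had one at −187 (TCGCTGCTTGAA) and one at −155 (TCGGAAATTAAA). Such a site was present in the same window of 1.94% of 5112 coding genes and 1.47% of 7133 lncRNAs. The *nc-tgp1* window held a HomolD box at −64, which 0.645% of the lncRNA windows and 2.62% of the coding windows contain. The *pho84* window held a TATA box at −212, a motif found before 44.4% of coding genes and 37.9% of lncRNAs. None of the motifs had an exact match before *nc-pho1*, whose window holds cagtcacg, different from the HomolD box in its last letter. Near matches were not searched. The *prt2* window held only an Mmi1 core on the opposite strand at −154 (found before 24.7% of lncRNAs and 28.6% of coding genes). These are matches of letters in a window and not measured binding.

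The arrays differed in brightness by slide. Replicate 1 of all groups was on one slide and replicate 2 on another, and the share of spots whose ChIP signal was well above background was 44.6% to 89.2% on slide 1 and 90.2% to 98.5% on slide 2. The dimmest array was H3K4Me3 +N replicate 1. Over the 44 member probes, 68.8% of the H3K4Me3 spots and 97.2% of the H3 spots were well above background, so low H3K4Me3 values on slide 1 often rest on signals near background. A single member probe, 925 bp into *tgp1*, was not well above background on any of the 4 H3K4Me3 arrays. All 50 probes occur once in the reference genome. With 2 arrays against 2, an exact permutation test of a single value cannot go below p = 0.333. The p-values therefore come from limma fits over all features and measure the spread between these arrays, which the study calls biological replicates.

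The 5′ ends of all 3 genes carried little H3K4Me3. A gene's 5′ end was scored as the mean over probes between −250 and 750 bp of the annotated start, which gave a value for 4276 coding genes with a median H3K4Me3 level of 2.06. At *pho1* (4 probes) the level was −0.99 and −0.45 in +N, against 0.08 and −0.80 in −N. At *pho84* (3 probes) it was −0.98 and −0.25 in +N, against −1.04 and −0.30 in −N. At *tgp1* (2 probes) it was −0.82 and −0.87 in +N, against −0.11 and −0.18 in −N. Thus 11 of the 12 values were below the array median, and the genes ranked 184, 168 and 194 from the lowest of 4276, in the order *pho1*, *pho84*, *tgp1*. On single arrays, between 2.55% and 9.43% of all genes had a lower level than the member. The 3 levels could not be ordered, since their arrays overlapped. Between the conditions the arrays overlapped at *pho1* and *pho84* and stood apart at *tgp1*.

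The same 5′ ends were far apart in total H3. At *tgp1* the H3 level was 1.42 and 0.65 in +N, against 0.67 and 0.85 in −N, which ranked 4270 from the lowest of the 4276 genes. At *pho1* it was 0.09 and 0.17 in +N, against 0.37 and 0.02 in −N, above 88.8% of genes. At *pho84* it was −0.97 and −0.18 in +N, against −0.95 and −0.71 in −N, above 17.8% of genes. The arrays of the 3 genes did not overlap, so the order *tgp1*, *pho1*, *pho84* held beyond the spread between arrays. That spread does not cover probe placement, which differed. The *tgp1* value has no probe before the start, only those at 113 and 493 bp. The probes ran from −235 to 615 bp at *pho1* and from −36 to 698 bp at *pho84*. What placement adds to the order and ranks was not tested. The conditions overlapped at each of them. Levels at different positions can be set side by side because each is a ratio to input on the same spot, although a response particular to a probe remains in it. Relative to H3 on the array with the same condition and replicate number, H3K4Me3 at the 5′ end averaged −1.39 for *tgp1*, −0.70 for *pho1* and 0.06 for *pho84*, against a median of 2.41 over all genes. The 3 genes ranked 58, 124 and 218 from the lowest of 4276 in this difference.

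**Figure D1:**
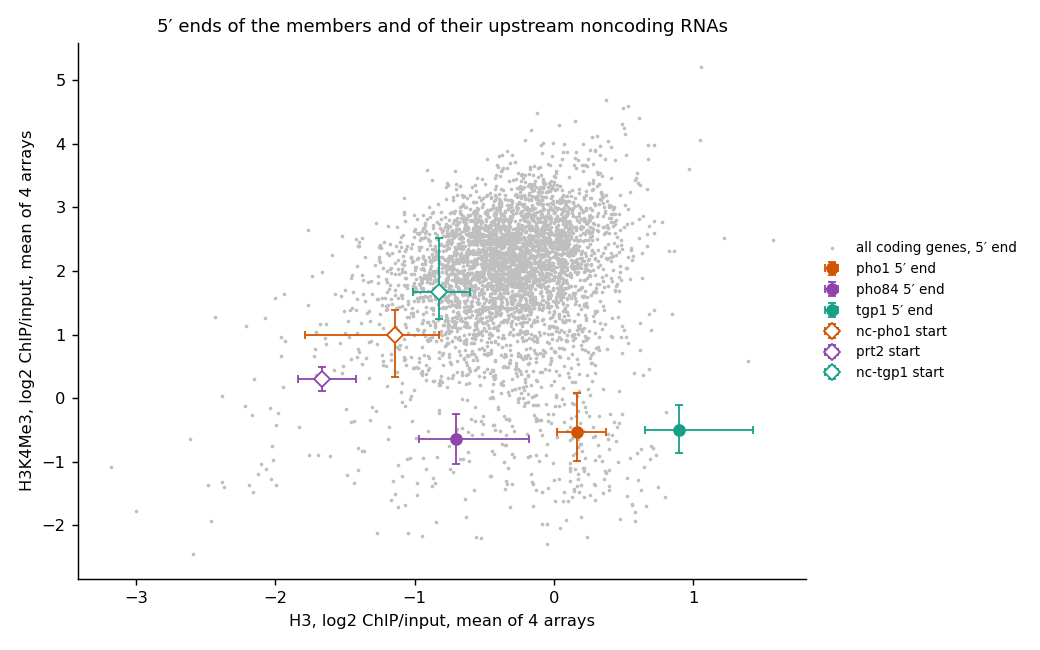
H3 (x axis) and H3K4Me3 (y axis), both as log2 ChIP over input averaged over 4 arrays, at the 5′ ends of 4276 coding genes (grey), of *pho1*, *pho84* and *tgp1* (filled) and of their upstream lncRNAs (open diamonds). Bars span the lowest to the highest array. The 3 genes sit below the main cloud in H3K4Me3 and spread from −0.70 to 0.90 in H3, while the lncRNA starts lie higher in H3K4Me3 and lower in H3.

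Within these loci, H3K4Me3 was higher at the starts of the lncRNAs. At *nc-tgp1* (3 probes) the 5′ level was 1.47 and 2.52 in +N, against 1.43 and 1.24 in −N. At *nc-pho1* (3 probes) it was 0.33 and 1.13 in +N, against 1.38 and 1.11 in −N. At *prt2* (4 probes) it was 0.48 and 0.48 in +N, against 0.11 and 0.13 in −N. All 12 values were above the array median, and the means exceeded those of 76.1%, 61.9% and 49.1% of 5845 annotated lncRNAs, whose median was 0.36. The conditions overlapped at *nc-pho1*, whereas at *nc-tgp1* and *prt2* both +N arrays were higher. Within each array the lncRNA start was higher than the start of its gene. The difference was 2.29 and 3.38 in +N, against 1.54 and 1.42 in −N for *tgp1*. It was 1.31 and 1.58 in +N, against 1.30 and 1.90 in −N for *pho1*. It was 1.46 and 0.73 in +N, against 1.15 and 0.43 in −N for *pho84*. Averaged over arrays these differences were 2.16, 1.52 and 0.94, and the one of *pho1* was 0.56 after a different background correction with loess. An exact permutation test over 4 arrays cannot reach the threshold, and these differences are given without a p.

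Single probes placed the mark more closely. By the mean of 4 arrays, the highest unflagged H3K4Me3 probe of the *pho1* and *pho84* regions was the same one. It lay 432 bp into *nc-pho1*, at −715 bp from the *pho1* start. Its level was 1.03 and 2.71 in +N, against 3.40 and 3.52 in −N. Both +N arrays were lower there, and the spot of +N replicate 1 was not well above background. The neighbouring probe, 187 bp into *nc-pho1*, was flagged as an outlier on 1 array and left out of the fits and of the peak windows below. All 4 arrays were high at it too, with 2.11 and 2.63 in +N, against 3.14 and 2.68 in −N. Within *prt2*, the probe 178 bp after its start read 2.04 and 2.60 in +N, against 1.62 and 1.62 in −N, a gap between the conditions with no overlap. On +N replicate 1 this probe was above the one 432 bp into *nc-pho1*. The lncRNA SPNCRNA.6615 on the opposite strand also covers its position. The next probe, 450 bp after the *prt2* start, was already lower, with −0.27 and 1.05 in +N, against 0.32 and 1.08 in −N. The highest probe of the *tgp1* region lay 353 bp into *nc-tgp1*, with 2.13 and 2.79 in +N, against 1.92 and 1.13 in −N. Just outside the region, the probe 46 bp before the *nc-tgp1* start read 2.68 and 3.08 in +N, against 2.09 and 2.08 in −N. The lncRNA ncRNA.1343, on the plus strand, starts inside *nc-tgp1* at −1620 bp from the *tgp1* start and runs over this position. SPNCRNA.4682 on the minus strand also covers it, and the mark there cannot be assigned to a single transcript. The same probe enters the 5′ level of *nc-tgp1* given above.

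**Figure D2:**
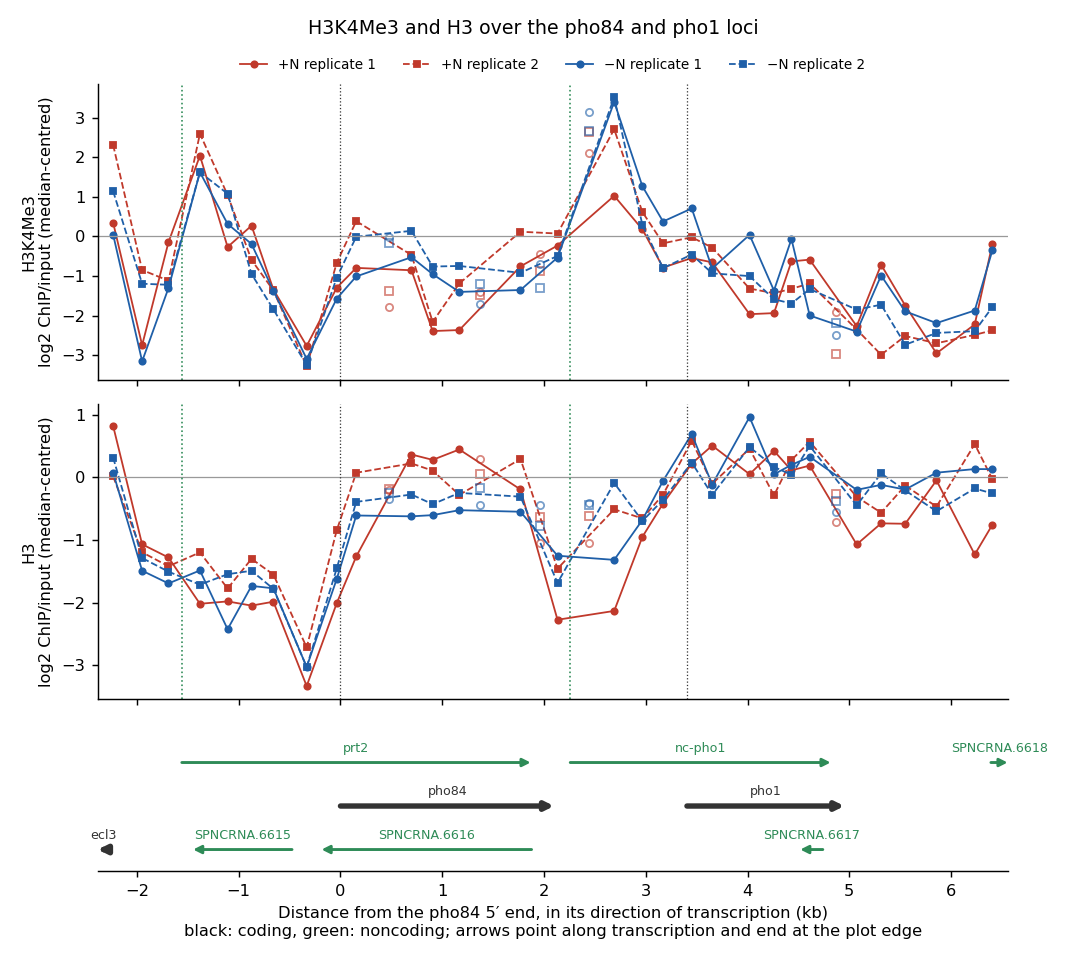
H3K4Me3 (top) and H3 (middle) over *pho84* and *pho1* as log2 ChIP over input on each array, against distance from the *pho84* 5′ end in kb. Open symbols are probes left out for an outlier flag, dotted lines mark gene (black) and lncRNA (green) starts, and arrows give the annotated transcripts. H3K4Me3 is high just after the *prt2* and *nc-pho1* starts, with up to 3.52 after the *nc-pho1* start, and lower at both coding starts.

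**Figure D3:**
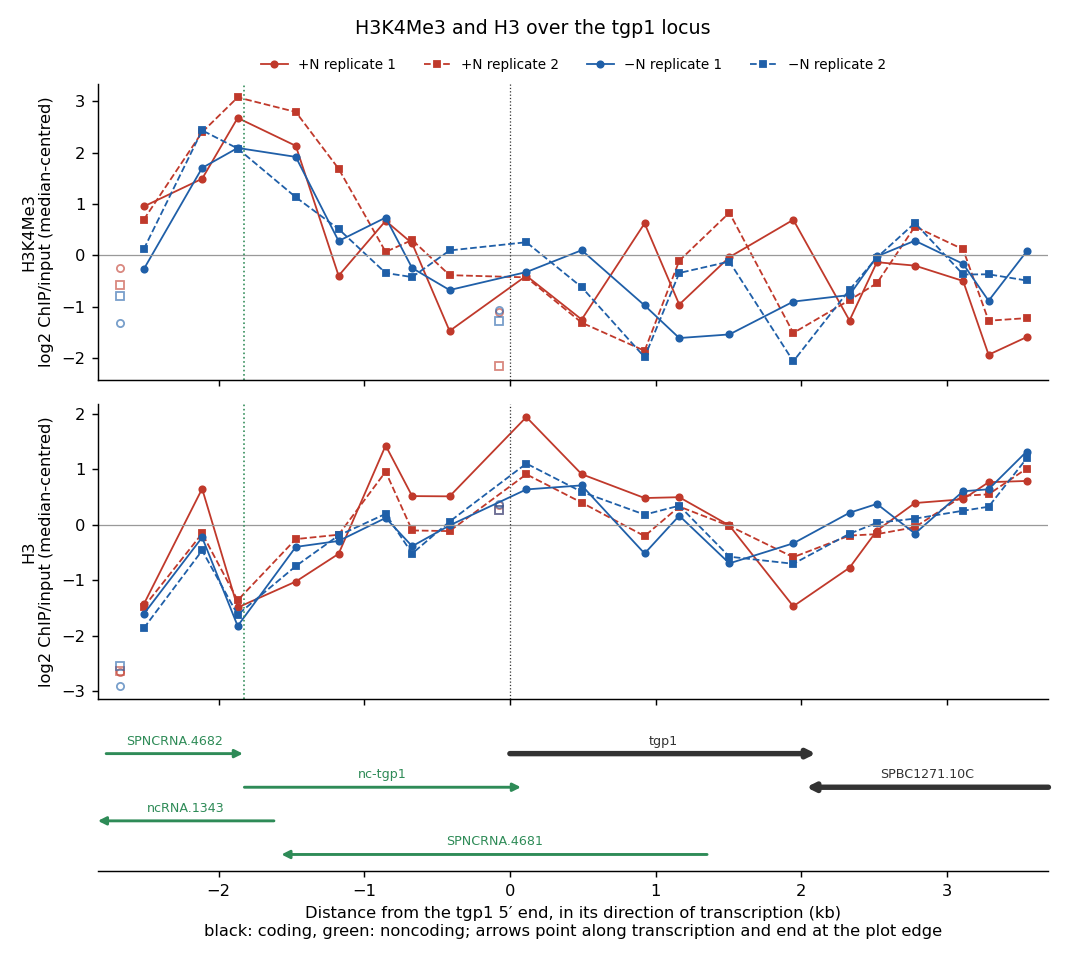
The same for *tgp1*, against distance from its 5′ end in kb in its direction of transcription. H3K4Me3 is highest around the *nc-tgp1* start, and H3 is high at the *tgp1* 5′ end, where +N replicate 1 reads 1.94, and again 3548 bp after it.

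The median coding gene had another profile. In bins of 250 bp, the median H3K4Me3 of all coding genes peaked in the first bin after the start at 2.79 (2956 genes with a probe there), and the median H3 was lowest in the bin before the start at −0.91 (3050 genes). At *tgp1*, the probe 113 bp after the start read −0.40 and −0.43 in +N, against −0.32 and 0.26 in −N for H3K4Me3, and all 4 of these spots were well above background. For H3 the same probe read 1.94 and 0.91 in +N, against 0.64 and 1.10 in −N, and its mean was the highest of the region and exceeded that of 99.4% of all probes. That rank rests on +N replicate 1, since the probe 3548 bp after the start, inside the convergent neighbour, was higher on the other arrays, with 0.79 and 1.01 in +N, against 1.32 and 1.19 in −N. At *pho1*, the probe 47 bp after the start read −0.55 and −0.02 in +N, against 0.71 and −0.46 in −N for H3K4Me3, and 0.22 and 0.58 in +N, against 0.69 and 0.24 in −N for H3. In the bin before the start, the *pho1* probe at −235 bp read −0.42 and −0.28 in +N, against −0.06 and −0.36 in −N for H3. The *tgp1* probe at −75 bp read 0.36 and 0.26 in +N, against 0.37 and 0.27 in −N. It was flagged as an outlier on 1 array and left out of the fits and of the peak windows. At these probes neither gene reached the median H3K4Me3 maximum or the median H3 minimum of coding starts. The H3 level at the *tgp1* 5′ end was above that of the whole annotated gene on all 4 arrays, by 0.73 on average. The whole gene includes the 5′ probes, so the 2 values are not separate. The 5′ end was the higher at 17% of the 4241 genes with both values.

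**Figure D4:**
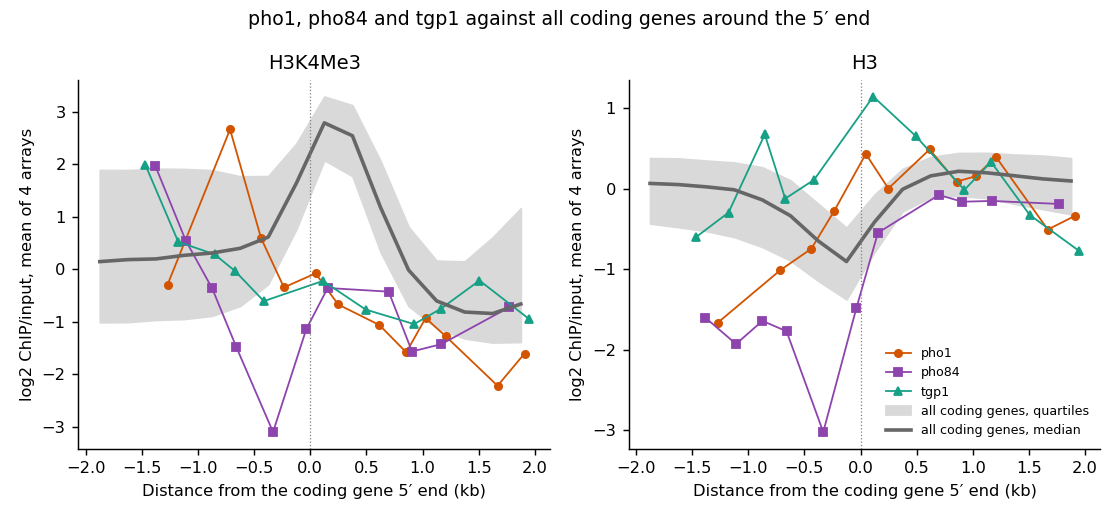
Mean of 4 arrays for each probe of *pho1*, *pho84* and *tgp1* against distance from the coding 5′ end in kb, with the median (dark line) and quartiles (grey band) of all coding genes in 250-bp bins. In H3K4Me3 the 3 genes lie below the band just after the start, where the median reaches 2.79. In H3, *pho1* and *tgp1* lie above the band at the start and *pho84* lies below it upstream.

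The DNA upstream of *pho84* was poor in H3. Over its 6 probes in the 1.5 kb before the start, H3 was −2.23 and −1.56 in +N, against −2.01 and −1.84 in −N, which ranked 51 from the lowest of 4313 genes. The lowest H3 probe of the 3 regions lay within *prt2*, at −332 bp from the *pho84* start. It read −3.33 and −2.72 in +N, against −3.03 and −3.03 in −N, with all 4 spots well above background, and 0.301% of all probes were lower. H3K4Me3 was at its minimum at the same probe, with −2.77 and −3.28 in +N, against −3.09 and −3.25 in −N, and 0.0779% of all probes were lower. Over 66 mitochondrial probes, whose DNA has no nucleosomes, the median on the H3K4Me3 arrays was −3.11 and −2.79 in +N, against −3.52 and −3.70 in −N, a range that includes 3 of the 4 values at this probe. On the H3 arrays the mitochondrial median was lower, −4.49 and −3.83 in +N, against −3.80 and −4.53 in −N. Upstream of *pho1*, H3 was −1.44 and −0.73 in +N, against −0.83 and −0.71 in −N, which placed it above 18.4% of genes. Its lowest probe lay 125 bp before the *nc-pho1* start, with −2.27 and −1.46 in +N, against −1.25 and −1.68 in −N. Upstream of *tgp1* it was 0.18 and 0.06 in +N, against −0.19 and −0.24 in −N, above 75.7% of genes. The lncRNA starts themselves were low in H3 on all arrays: −1.79 to −0.82 at *nc-pho1*, −1.84 to −1.42 at *prt2* and −1.01 to −0.60 at *nc-tgp1*. Relative to H3, H3K4Me3 at these starts averaged 2.13, 1.97 and 2.49, against a median of 0.76 over all lncRNAs.

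The upstream 1.5 kb held more H3K4Me3 than the gene itself at *pho1* and *tgp1*. The difference between the 2 segments on the same array was 1.10 and 1.74 in +N, against 1.71 and 1.80 in −N at *pho1*, and 0.45 and 1.62 in +N, against 1.28 and 1.01 in −N at *tgp1*. Over 4250 genes the median difference was 0.10, and 52.5% of them had a difference above 0. The mean difference exceeded that of 84% of these genes at *pho1* and of 74.7% at *tgp1*. At *pho84* it was 0.87 and 0.29 in +N, against 0.33 and −0.27 in −N, and its mean of 0.31 turned to −0.14 with normexp background correction. Downstream of *pho1* H3K4Me3 was among the lowest of the genome, with −1.68 and −2.57 in +N, against −1.62 and −2.15 in −N over 6 probes (rank 26 from the lowest of 4315). At all 6 probes the slide 1 spots were not well above background. The lowest single probe there, 2452 bp after the *pho1* start, read −2.96 and −2.70 in +N, against −2.19 and −2.44 in −N, with slide 1 not well above background.

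The question put to the 2 conditions in the study is whether the chromatin entering premeiotic S phase differs between them, and at these loci no segment passed the threshold of 0.05 on the adjusted p. At the 5′ ends, none of the 3 genes was called in H3K4Me3 (0.0468% of 4276 genes were, both lower in +N) or in H3 (0%). In the upstream 1.5 kb none was called among 4313 genes (0% for H3K4Me3 and 0% for H3), nor over the gene among 4262 (0% for both). Over these 18 tests the changes, as +N minus −N, lay between −0.70 and 0.46 with standard errors of 0.14 to 0.44, and 1 of them had an unadjusted p below the threshold. In 10 of the 18 the sign differed between the slides. With the slide as a block more genes were called in the series (4.37% at 5′ ends, 5.84% upstream and 3% over the gene for H3K4Me3, 0.0468% at 5′ ends, 0% upstream and 0.0469% over the gene for H3), but again none of the 18.

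**Figure D5:**
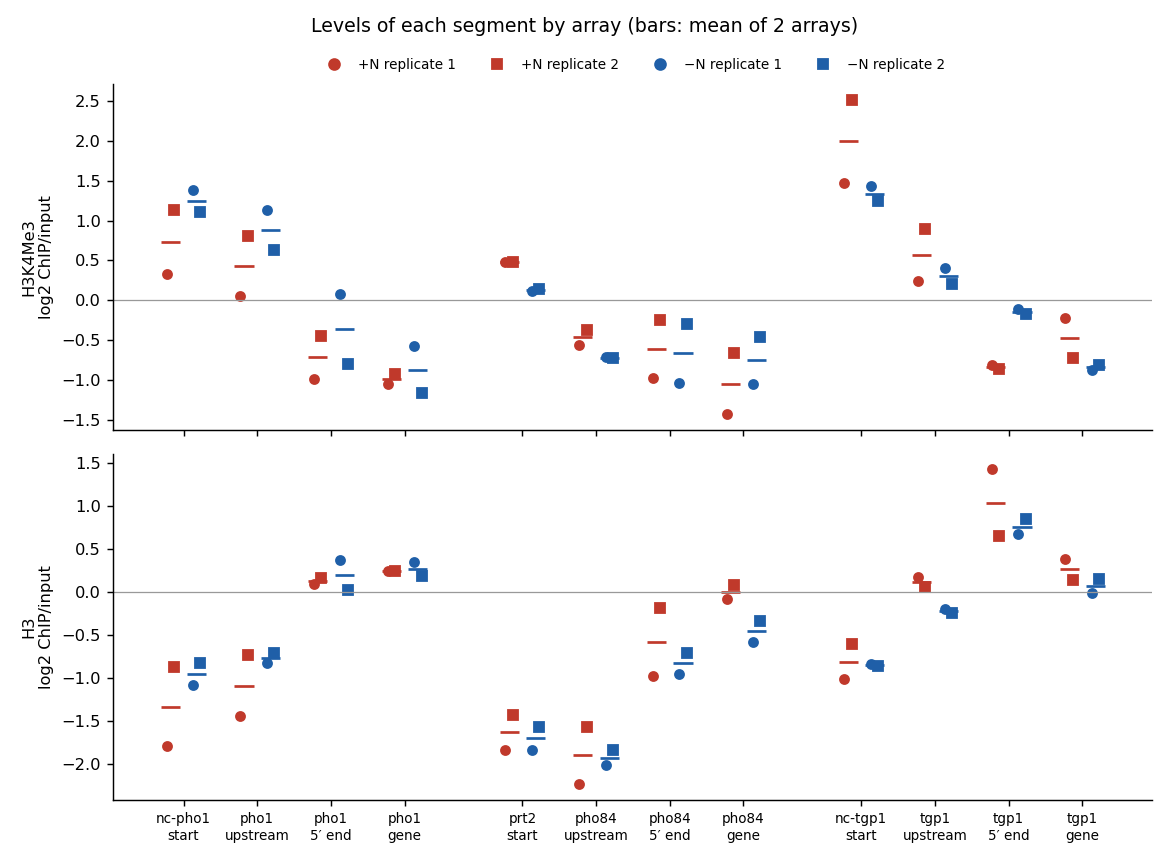
H3K4Me3 (top) and H3 (bottom), log2 ChIP over input, of the lncRNA start, upstream 1.5 kb, 5′ end and gene of *pho1*, *pho84* and *tgp1* on each array, +N red and −N blue, circles for slide 1 and squares for slide 2, bars for the mean of 2 arrays. Among the segments where the conditions stand apart are H3K4Me3 at the *tgp1* 5′ end (−0.84 in +N, −0.15 in −N) and H3 over the *pho84* gene (0.00 in +N, −0.46 in −N).

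The largest of these changes was in H3K4Me3 at the *tgp1* 5′ end. It averaged −0.84 ± 0.03 in +N, against −0.15 ± 0.05 in −N (SD, n = 2 arrays each), a change of −0.70 (SE 0.43, limma adjusted p = 0.972, and 0.140 with the slide as a block). It was −0.71 on slide 1 and −0.69 on slide 2. Both +N arrays were below both −N arrays, which was so at 3.70% of 4276 genes, and the median change of all genes was 0.25. The value rests on 2 probes, and the one at 493 bp was not well above background on slide 1. With probes from 0 to 1000 bp the change was −0.18. H3K4Me3 was higher in both +N arrays upstream of *pho84*, with −0.56 and −0.38 in +N, against −0.71 and −0.73 in −N (so at 19.7% of 4313 genes), and over the *tgp1* gene, with −0.22 and −0.73 in +N, against −0.87 and −0.81 in −N (so at 17.1% of 4262 genes). At *pho1* the change was −0.36 (SE 0.44), with −1.07 on slide 1 and 0.35 on slide 2, and at *pho84* it was 0.05 (SE 0.44). In the test of the H3K4Me3 change against the H3 change none of 4276 genes was called (0%), and *tgp1* had −0.98 (SE 0.44, limma adjusted p = 0.983), *pho1* −0.29 (SE 0.49) and *pho84* −0.20 (SE 0.53).

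For H3, the *pho84* gene showed the largest change. Over 5 probes it read −0.07 and 0.08 in +N, against −0.58 and −0.33 in −N, so that both +N arrays were higher, as they were at 14.2% of 4262 genes. The change was 0.46 (SE 0.15, unadjusted p = 0.0215, limma adjusted p = 0.999, and 0.618 with the slide as a block), with 0.51 on slide 1 and 0.41 on slide 2. Background correction with normexp and loess left 0.17 of it. The probe with the largest H3 change of the region lay 698 bp into *pho84*, with 0.36 and 0.22 in +N, against −0.62 and −0.27 in −N. The next probe, at 906 bp, read 0.28 and 0.11 in +N, against −0.60 and −0.43 in −N for H3. At that probe H3K4Me3 ran the other way, with −2.39 and −2.16 in +N, against −0.95 and −0.76 in −N, a change of −1.42 (SE 0.45, limma adjusted p = 0.929, and 0.0561 with the slide as a block). H3 upstream of *tgp1* also stood higher in both +N arrays (9% of 4313 genes did), with a change of 0.34 (SE 0.19, limma adjusted p = 1). The probe at −853 bp from the *tgp1* start had the largest H3 change of that region, where H3 was 1.43 and 0.96 in +N, against 0.12 and 0.20 in −N (change 1.03, SE 0.31, limma adjusted p = 0.9997).

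At the lncRNA starts no change was called for H3K4Me3 or H3 (0% of 5845 lncRNAs for each), nor for the difference between the 2 (0%), and none of the 6 tests of a change had an unadjusted p below the threshold. *nc-tgp1* and *prt2* were higher in both +N arrays in H3K4Me3, as 19.2% of lncRNAs were. The change at *nc-tgp1* was 0.66 (SE 0.44, limma adjusted p = 0.936, and 0.171 with the slide as a block, under which 5.44% of lncRNAs were called), with 0.04 on slide 1 and 1.28 on slide 2. At *prt2* it was 0.36 (SE 0.35), with 0.36 on slide 1 and 0.35 on slide 2, although it was −0.18 after normexp and loess. At *nc-pho1* it was −0.51 (SE 0.41), with −1.05 on slide 1 and 0.03 on slide 2, and 0.44 once dim probes were left out.

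Probe by probe, none of the 44 was called in either antibody (0% of 37239 probes for each, limma), and 3 in H3K4Me3 and 3 in H3 had an unadjusted p below the threshold, as 1504 and 653 of the 37239 probes did. Groups did not overlap with +N higher at 9 of the 44 probes (20.5%, against 19.2% of all probes) in H3K4Me3 and at 7 (15.9%, against 12%) in H3. With +N lower they numbered 10 (22.7%, against 16%) and 5 (11.4%, against 15.3%). With the slide as a block, 1 of 44 was called for H3K4Me3, where 2.51% of all probes were, and none for H3 (0.0403%). The called probe was the one with the highest mean over 4 arrays in *nc-pho1*, at −715 bp from *pho1* (change −1.59). Without the block its SE was 0.64 and its limma adjusted p = 0.929, and with the block the limma adjusted p = 0.0236. H3 at this probe was −2.13 and −0.51 in +N, against −1.32 and −0.09 in −N, and overlapped between the conditions. Both slide 1 spots for H3 were not well above background there. In the *tgp1* region the largest H3K4Me3 change was at 1507 bp, with −0.03 and 0.83 in +N, against −1.54 and −0.12 in −N (change 1.23, SE 0.64, limma adjusted p = 0.929). This probe lies in the 3′ part of *tgp1*, and the conditions did not overlap there. The lowest H3K4Me3 of the *tgp1* region was at 3287 bp, inside the convergent neighbour, with −1.93 and −1.27 in +N, against −0.88 and −0.37 in −N. Both +N arrays were the lower ones, and both slide 1 spots were not well above background. H3 in the *tgp1* region was lowest at 1946 bp, near the 3′ end, with −1.47 and −0.58 in +N, against −0.34 and −0.70 in −N, which overlapped. In the *pho1* region the mean H3 over 4 arrays was highest at 615 bp, with 0.05 and 0.46 in +N, against 0.96 and 0.48 in −N. The conditions stood apart there, with both +N arrays lower and also lower than at the probe 47 bp after the start. The largest H3 change of that region was at 1908 bp, downstream of the gene, with −0.74 and −0.57 in +N, against −0.12 and 0.06 in −N.

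Peaks were also located by the peak criteria of the study's methods, on means of 5 successive probes and of both replicates. Probes flagged as outliers were left out first, a step that the study's methods do not describe. A peak exceeds the 8 windows on either side and reaches a ratio of 1.5 for H3K4Me3 or 1 for H3. In −N, an H3K4Me3 peak lay 353 bp into *nc-tgp1* (ratio 2.39) and one 709 bp into *nc-pho1* (ratio 1.66). In +N, no H3K4Me3 window of the 3 regions met the criteria with flagged probes left out. The highest +N window at the *nc-tgp1* start lay 46 bp before it, outside the region, and had a ratio of 3.37. At the *nc-pho1* start the highest had 1.22. The windows there skip the flagged probe 187 bp into *nc-pho1*, which read 2.11 and 2.63 in +N, against 3.14 and 2.68 in −N. The *nc-pho1* peak position, its ratios and the lack of a +N peak there hold only for windows without this probe. No peak was centred on the coding starts, and *prt2* had none in either condition. For H3, both conditions had a peak 615 bp into *pho1*, with ratios of 1.17 in +N, against 1.18 in −N. H3 peaks at −414 bp from the *tgp1* start (ratio 1.66) and 3287 bp after it (ratio 1.49) were found in +N alone. Whether a peak meets the criteria in one condition is a description and was not tested as a difference.

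Other annotated transcripts overlap the regions. The coding gene SPBC1271.10C, a transporter that runs towards *tgp1* from the other side, had a 5′ H3K4Me3 level of 3.38 and 3.69 in +N, against 3.29 and 4.31 in −N, above the median coding gene. The lncRNA SPNCRNA.4681 runs antisense through the *tgp1* 5′ end and had −0.12 and −0.38 in +N, against −1.37 and −0.81 in −N at its own 5′ end inside *tgp1*. Its change of 0.84 (SE 0.38, limma adjusted p = 0.936, and 0.0616 with the slide as a block) did not pass. At *pho84*, the antisense lncRNAs SPNCRNA.6615 and SPNCRNA.6616 had 5′ H3K4Me3 levels between −1.56 and −0.53 on the 8 values of both. SPNCRNA.6615 lies upstream of the gene, within *prt2*. At *pho1*, the antisense SPNCRNA.6617 lay between −1.40 and −0.85, and SPNCRNA.6618, beyond its 3′ end, between −2.62 and −1.84.

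Among genes of phosphate uptake, storage and signalling, a 5′ level below 0 was found at 4 of the 12 with a value, the 3 genes above and *csk1*. None of the 12 was called for H3K4Me3 (0.0468% of all 5′ ends were) or H3 (0%), nor with the slide as a block (4.37% for H3K4Me3 and 0.0468% for H3). The median H3K4Me3 level was 1.58 (2.06 over all genes) and the median change 0.14 (0.25 over all genes). Both medians include the 3 genes above, so they are no separate result about other phosphate genes. The gene *asp1*, for the inositol pyrophosphate kinase, had a level of 3.61 and the highest change (0.58), and *tgp1* the lowest. *vtc4*, for the polyphosphate polymerase, had 3.35, and *pho7* itself 2.03. *csk1*, encoding a kinase that activates cyclin-dependent kinases, had −0.33. *pho4*, which despite its name encodes a thiamine-repressible acid phosphatase, had 1.16. In H3 the highest change of the list was at *pho7* (0.35) and the lowest at *pho4* (−0.10). Of genes for termination and decay of noncoding RNA, 19 had a value, with a median H3K4Me3 level of 2.56 and a median change of 0.21. None was called for either antibody (0.0468% of all 5′ ends for H3K4Me3 and 0% for H3), and 1 of the 19 was for H3K4Me3 with the slide as a block, under which 4.37% of all 5′ ends were. It was *mcs6*, the kinase of TFIIH, with the highest change of the list (1.49, limma adjusted p = 0.000176 with the block and 0.484 without). The lowest change was at the RNA helicase gene *mtl1* (−0.25). In H3 the changes ran from −0.36 at the transcription kinase gene *cdk9* to 0.49 at *cft2*, for a cleavage and polyadenylation factor subunit.

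The genes most alike in 5′ values over the 8 arrays, by root mean square (RMS) difference, were SPAC11D3.11C (0.28), *fmo1* (0.29) and *map3* (0.33) for *pho1*. For *pho84* they were *alp21* (0.27), *pfl5* (0.28) and *gmh1* (0.30), and for *tgp1* they were *rsv1* (0.26), *csx1* (0.42) and *plb5* (0.46). The median RMS difference from any of the 4276 genes was 1.95 for *pho1*, 1.97 for *pho84* and 2.11 for *tgp1*. Among the 3 genes the RMS difference was 0.65 between *pho1* and *tgp1*, 0.79 between *pho1* and *pho84* and 1.26 between *pho84* and *tgp1*. These values are below the medians. They exceed those of the most alike genes, which were picked as the nearest of all.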

How the data were processed

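Histone H3 and H3K4Me3 ChIP-on-chip was analysed on 8 dual-colour Agilent arrays. Per the labels, ChIP was red and input green on every array, so dye bias is not separated from enrichment, and T7 RNA polymerase served to amplify the material. Deposited intensity values are processed signals of Agilent Feature Extraction 10.7.3.1, background-subtracted, spatially detrended and dye-normalized with a linear factor. A log2 table deposited by the authors equals log2 of red over green.

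Here log2 ratios were centred on the median of the nuclear probes, without 5402 probes (12.7%) flagged as outliers on any array and with saturated spots kept. Segments are means over probes. A 5′ end runs from 250 bp upstream to 750 bp downstream. Changes were fitted in limma 3.58.1 (R 4.3.3, lmFit and eBayes, two-sided) for each antibody, with Benjamini-Hochberg adjustment over all features and a threshold of 0.05. An interaction fit used all 8 arrays. The fits were also run on simulated data with independent noise of a single spread and no slide effect. These arrays differ from that, so the simulation does not measure how the fits handle the slides. The precision is limited by 2 arrays per group.

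The probe build is not given in the sources used here. On chromosome II the given positions matched ASM294v3 without shift in 18 of 18 segments of 250 kb, by the correlation of probe length with GC content. Chromosome I beyond 3750000 was not matched, and its genes were not used. Sequences come from the RefSeq genome (ASM294v3).

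Replicate numbers coincide with the slides, as the file headers show. Deviations of same-numbered arrays correlated with r = 0.60 for H3K4Me3 and 0.12 for H3 over 37239 probes, so fits with the replicate number as a block are given too. The alternatives were other centring, normalization and background correction, dim or flagged probes, windows, the deposited table, the block and each array left out. The signal means were not used for normexp (offset 50), which took the medians. Of 19 names in the phosphate list 14 genes matched and 12 had a value, and of 22 in the termination list 22 matched and 19 had one.

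The named probes were, per gene and antibody, those with the highest and lowest level and the largest change, and likeness was ranked by RMS difference. The genes and lists were chosen with earlier results of these data known.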

Additional observations from a re-analysis of the deposited data

How the results depend on the processing

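No change of a segment of the 3 genes or of their lncRNA starts passed the threshold under any alternative. Of 352 values over 24 changes, 316 kept their direction and 36 did not, 18 of these with all arrays kept. H3K4Me3 was called at 2 coding 5′ ends in the series, and at 4 with centring on the 10th percentile, 0 without centring, 0 with quantile normalization, 0 with background-subtracted signals, 0 with normexp, 9 with normexp and loess, 10 without dim probes, 0 with windows ending 500 bp downstream and 0 with windows from 0 to 1000 bp. With the replicate number as a block it was called at 187 5′ ends and 936 probes, and H3 at 2 5′ ends and 15 probes, which added no call among the segments of the 3 genes. The interaction gave 1 call with 10th-percentile centring, against 0. The median H3K4Me3 change of all 5′ ends (0.25) shifted by 0.23 with 10th-percentile centring, −0.20 with quantile normalization and 0.15 with normexp. With 1 array left out, 0 to 2 coding 5′ ends were called for H3K4Me3 and 0 to 2 for H3, and 0 to 36 probes for H3.

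Among H3K4Me3 changes that turned, the *pho84* 5′ end (0.05) was −0.029 without centring, −0.21 with normexp and loess, −0.072 without dim probes, −0.31 with flagged probes kept and −0.53 from 0 to 1000 bp. Without dim probes the *pho1* upstream region had 0.44, *nc-pho1* 0.44 and the *pho84* gene 0.17. With normexp and loess the *pho84* upstream region had −0.15 and *prt2* −0.18. The *tgp1* upstream region had −0.41 with background-subtracted signals, and the *pho1* gene 0.11 with 10th-percentile centring. For H3, the *pho1* 5′ end had 0.10 with 10th-percentile centring and 0.066 to 500 bp downstream, the *pho1* gene 0.14 with 10th-percentile centring and 0.036 with normexp, and the *pho84* upstream region −0.0045 without centring and −0.011 with normexp and loess.

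Where leaving out 1 array turned a direction, H3K4Me3 changes ranged over −0.80 to 0.080 at the *pho1* 5′ end, −0.31 to 0.42 at the *pho84* 5′ end, −0.064 to 0.59 upstream of *tgp1*, −0.41 to 0.18 over *pho1* and −0.68 to 0.091 over *pho84*. For H3 the ranges were −0.24 to 0.11, −0.14 to 0.65 and −0.11 to 0.67 at the 5′ ends of *pho1*, *pho84* and *tgp1*, −0.68 to 0.042 upstream of *pho1*, −0.31 to 0.36 upstream of *pho84*, −0.10 to 0.058 over *pho1*, −0.83 to 0.079 at *nc-pho1*, −0.13 to 0.28 at *prt2* and −0.17 to 0.25 at *nc-tgp1*. H3K4Me3 changes that kept their direction but moved by over 1.5 times were those at *nc-tgp1* (0.135 to 1.18), at *nc-pho1* (−0.92 to −0.11), upstream of *pho1* (−0.83 to −0.072), upstream of *pho84* (0.16 to 0.35) and over *tgp1* (0.11 to 0.62), and the H3 change over *tgp1* (0.062 to 0.32) was another.

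Within arrays, the H3K4Me3 excess of the lncRNA start over the gene start stayed above 0 on average in all settings run. For *pho1* (1.52) it was 0.92 with normexp, 0.56 with normexp and loess and 1.94 with flagged probes kept, and for *pho84* (0.94) it was 1.59 without dim probes, a setting that left no value for *pho1*. The excess of the upstream region over the gene was 1.21 and 1.15 for *pho1* with normexp, without and with loess, 2.21 for *tgp1* without dim probes, and −0.14, −0.24 and −0.082 for *pho84* with normexp, normexp and loess, and without dim probes. The causes of these shifts were not tested. Precision is limited by 2 arrays per group and, for low H3K4Me3 on slide 1, by signal near background.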
